A study of Mus musculus with 4 samples.

Results

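The Th17 lineage loci are 7 mouse genes that mark or drive the Th17 class of helper T cells: Rora, Ahr, Il17a, Il17f, Il21, Il23r and Ccr6. Their members were the accessible regions that overlapped the body of one of these genes or the 50 kb on either side of it. There were 62 such regions of 64525 in the deposited list (0.0961%), and none of them fell in more than 1 of the 7 windows. The study performed ATAC-seq, in which a transposase inserts adapters into DNA that is free of nucleosomes, on naive CD4 T cells from spleen and lymph nodes (labelled pLN). There were 2 libraries from mice labelled DDX55 KO and 2 libraries from mice labelled WT. Neither strain, age nor the kind of Ddx55 deletion is given in the sources used here, nor whether replicates were separate animals. The list is a single one for all 4 libraries and holds positions only, so every value here describes DDX55 KO and WT cells together. Depth per library is unknown, no genotype difference and no spread between replicates can be given, and a place without a region is one that the authors' list does not hold, not one shown to be closed.

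Th17 cells are helper T cells that arise from naive CD4 T cells when TGF-beta acts together with interleukin-6, and interleukin-23 then maintains them. They secrete the interleukins 17A and 17F, act at mucosal surfaces against extracellular bacteria and fungi, and contribute to autoimmune inflammation. Naive cells have not yet made this choice and do not secrete these cytokines. The labelled cell type was checked on marker genes. All 10 naive CD4 T cell markers, among them Cd4, Cd3e, Lck and Il7r, had a region within 1 kb of a gene start, against 1 of 2 CD8 T cell markers (Cd8b1), 0 of 5 B cell markers, 1 of 4 macrophage markers (Csf1r) and 0 of 2 natural killer cell markers. The share of all protein-coding genes was 52.9%. Markers such as Cd3e and Lck are shared with CD8 T cells. In the body or within 50 kb, the lists differed less. A region was found there for all 10 naive CD4 T cell, 2 of 2 CD8 T cell, 5 of 5 B cell, 3 of 4 macrophage and 1 of 2 natural killer cell markers, and for 91.0% of all protein-coding genes.

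No listed promoter of a member coincided with an accessible region, and Ahr, whose higher-coordinate end had a region, had no listed promoter. The RefSeq promoter set used here (build GRCm38.p6, the assembly that mm10 names) holds a start for 6 of 7 members, 7 starts in all. It has none for 4395 protein-coding genes, Ahr among them. In the 300-base windows of the 7 starts, from 250 bases before to 50 after the start, 0 of 7 overlapped a region. Over all protein-coding genes 9950 of 21263 such windows did (46.8%). With 1 kb on either side of a start, or of either end for a gene with no listed start, 1 of the 7 members had a region, Ahr (14.3%, 95% exact binomial interval 0.361 to 57.9%). The share was 52.9% of all 21887 protein-coding genes, and 53.7% of the 17492 with a listed start. A region inside the gene body was found for 4 of 7 members (57.1%, 18.4 to 90.1%), close to the 65.5% of all protein-coding genes. Each of the 7 had a region in the body or within 50 kb, as did 91.0% of all genes. The members are few, so these intervals are wide, and they cover counting error only. They treat the 7 genes as independent draws, although the genes were picked and Il17a and Il17f are neighbours.

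The promoters of both IL-17 genes and of the IL-23 receptor gene are shown. None of them overlapped a region, and each held the short word AGGTCA, which the choice of members did not use. Each runs 5′ to 3′ on the strand of its gene. Capitals mark the core word of the binding site of ROR nuclear receptors, AGGTCA on either strand, and the TATA box word TATAAA. The Il23r window lacks TATAAA. The windows are chr1:20730655-20730954 (plus strand) for Il17a, chr1:20784221-20784520 (minus strand) for Il17f and chr6:67491806-67492105 (minus strand) for Il23r.
Il17a: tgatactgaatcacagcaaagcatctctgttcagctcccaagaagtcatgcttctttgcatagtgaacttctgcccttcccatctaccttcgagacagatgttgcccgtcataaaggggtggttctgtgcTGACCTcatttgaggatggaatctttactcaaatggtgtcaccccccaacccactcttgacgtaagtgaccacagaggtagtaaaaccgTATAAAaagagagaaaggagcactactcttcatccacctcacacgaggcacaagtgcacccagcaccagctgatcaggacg
Il17f: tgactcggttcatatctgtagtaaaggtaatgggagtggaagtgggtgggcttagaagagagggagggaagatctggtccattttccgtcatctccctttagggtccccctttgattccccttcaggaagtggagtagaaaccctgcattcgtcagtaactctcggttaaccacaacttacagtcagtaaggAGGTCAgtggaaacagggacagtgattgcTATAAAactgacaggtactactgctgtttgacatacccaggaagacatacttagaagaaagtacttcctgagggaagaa
Il23r: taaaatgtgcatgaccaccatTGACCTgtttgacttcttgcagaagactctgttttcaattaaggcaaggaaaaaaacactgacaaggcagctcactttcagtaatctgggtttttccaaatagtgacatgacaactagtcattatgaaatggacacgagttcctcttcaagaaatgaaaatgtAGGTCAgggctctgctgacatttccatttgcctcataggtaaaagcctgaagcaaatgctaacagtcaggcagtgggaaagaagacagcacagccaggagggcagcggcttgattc

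The word AGGTCA occurred at position -120 from the start in Il17a and at -58 in Il17f. It occurred at -229 and -66 in Il23r, and at -44 in the first of 2 listed Ccr6 promoters. In all, 4 of the 7 listed member promoters, none of which is of Ahr, held it on either strand, against 14.7% of the promoters of protein-coding genes. TATAAA stood at -31 in Il17a and at -29 in Il17f, and in no other member promoter, against 12.6% of all. The RUNX word TGTGGT was present in Il17a, Il17f and the first Ccr6 promoter, against 15.0% of all promoters, and the NFAT word GGAAAA in Rora, Il21, Il23r and Il17f, against 22.3%. The pattern TGANTCA, set for AP-1, was matched in Il17a alone of the members (6.99% of all promoters), as TGAATCA at -244. The pattern takes any middle letter, whereas the AP-1 site has C or G there, so this match is not an AP-1 word. The STAT word TTCNNNGAA was found in Ccr6 alone (7.69%), and at -157 it overlapped the TCF word CTTTGA, which Il17f and both Ccr6 promoters held (14.4%). The AhR word GCGTG was found in Rora and Il21 (38.5%), and the ETS word AGGAAG in Il17f and Ccr6 (34.4%), where 2 copies in Ccr6 overlapped each other. No member promoter held the ETS word CGGAAG (21.1% of all promoters), the GC box GGGCGG (46.2%) or the CRE word TGACGTCA (2.23%). A word of this kind is a match of letters and not a bound site.

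A second set shows the CG dinucleotides in the promoters of Rora and of the neighbouring genes Ice2 and Mcm3. Such dinucleotides are dense at the promoters of many broadly expressed genes. Capitals mark each CG. Rora (chr9:68653536-68653835, plus strand) had no region over its start. Ice2 (chr9:69397748-69398047, plus strand), which encodes a subunit of the little elongation complex, lies past the far end of Rora and had one of 891 bp. Mcm3 (chr1:20820263-20820562, minus strand), which encodes a subunit of the replicative DNA helicase, is the neighbour of Il17f and had one of 638 bp.
Rora: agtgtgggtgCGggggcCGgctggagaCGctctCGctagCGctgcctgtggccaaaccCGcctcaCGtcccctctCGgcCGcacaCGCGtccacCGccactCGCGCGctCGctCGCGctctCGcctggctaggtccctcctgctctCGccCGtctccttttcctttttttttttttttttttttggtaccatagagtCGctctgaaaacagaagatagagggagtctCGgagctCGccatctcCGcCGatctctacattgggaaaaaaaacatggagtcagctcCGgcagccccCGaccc
Ice2: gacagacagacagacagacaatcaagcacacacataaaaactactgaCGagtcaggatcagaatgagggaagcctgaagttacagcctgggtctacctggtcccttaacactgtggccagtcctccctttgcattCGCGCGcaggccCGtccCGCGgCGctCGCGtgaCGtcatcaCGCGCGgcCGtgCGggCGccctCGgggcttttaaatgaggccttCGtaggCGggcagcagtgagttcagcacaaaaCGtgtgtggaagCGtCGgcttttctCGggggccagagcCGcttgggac
Mcm3: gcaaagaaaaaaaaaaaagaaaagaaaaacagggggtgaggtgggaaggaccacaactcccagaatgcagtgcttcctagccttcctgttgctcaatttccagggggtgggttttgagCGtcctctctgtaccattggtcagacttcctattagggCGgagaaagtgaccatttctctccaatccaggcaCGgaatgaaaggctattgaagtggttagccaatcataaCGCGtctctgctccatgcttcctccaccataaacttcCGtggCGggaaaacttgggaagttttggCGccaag

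The Rora promoter held 28 CGs, more than 81.2% of all promoters of protein-coding genes, and 79.3% of the 353 promoters with exactly 28 overlapped a region, whereas Rora did not. The Ice2 promoter held 25 CGs and the Mcm3 promoter 8. The other members with a listed promoter had fewer CGs than Rora. There were 6 in Il17a, 5 in Il21, 4 in Il17f, 2 in Il23r and 2 and 10 in the 2 Ccr6 promoters. Of all promoters with 2 CGs, 5.4% overlapped a region, of those with 6 CGs 19.7%, and of those with 10 CGs, as in the second Ccr6 promoter, 42.3%, near the share of all promoters. Of the listed member promoters, only that of Rora had a CG count at which most promoters with the same count overlapped a region. The part that CG content plays in the share of member promoters without a region was not tested.

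**Figure D1:**
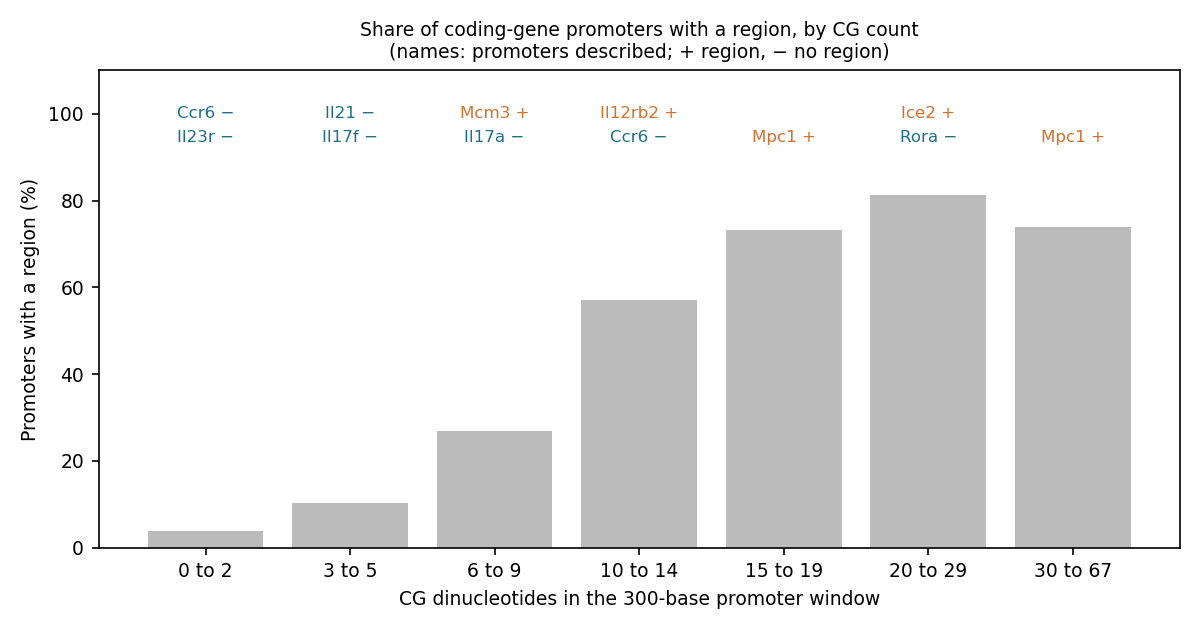
Percent of 300-base promoter windows of protein-coding genes that overlapped a region (bars), by the number of CG dinucleotides in the window. Names above the bars mark the promoters of members and of neighbouring genes in their class, with a plus sign where a region overlapped and a minus sign where none did; Rora stands without one in the class of 20 to 29 CGs, where 81.2% had one.

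Rora encodes a retinoid-related orphan nuclear receptor that acts with its relative ROR gamma t in Th17 cells. It is a long gene, 735 kb (chromosome 9, 68653404 to 69388246, gene ID 19883), and is known to have several alternative first exons that give a long and shorter proteins. Its window held 26 regions, 23 of them inside the gene, 2 upstream and 1 downstream, the last at the start of Ice2. The region nearest to the listed start was 210 bp wide and ended 18.0 kb upstream of it; the first region inside the gene, 179 bp wide, began 35.6 kb downstream.

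The regions inside Rora were uneven along the gene. Counted in 5 equal parts from the start, there were 2, 4, 8, 4 and 5 regions, and their summed width was 349, 982, 2992, 2045 and 2310 bp. The first part, 147 kb long, held no region of 300 bp or more, the second 1, the third 4, and the last pair 2 each. The 5 widest were 1382 bp at 636 kb from the start (69289378 to 69290759), 895 bp at 381 kb, 841 bp at 511 kb, 770 bp at 446 kb and 612 bp at 370 kb. Positions of internal first exons are not in the gene table used here, so whether the widest of them lies at one was not tested. In 4 cases, from 185 to 255 kb, the region also lay within Gm31262, a long noncoding RNA gene inside Rora, and 1 region lay within another, Gm15511.

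**Figure D2:**
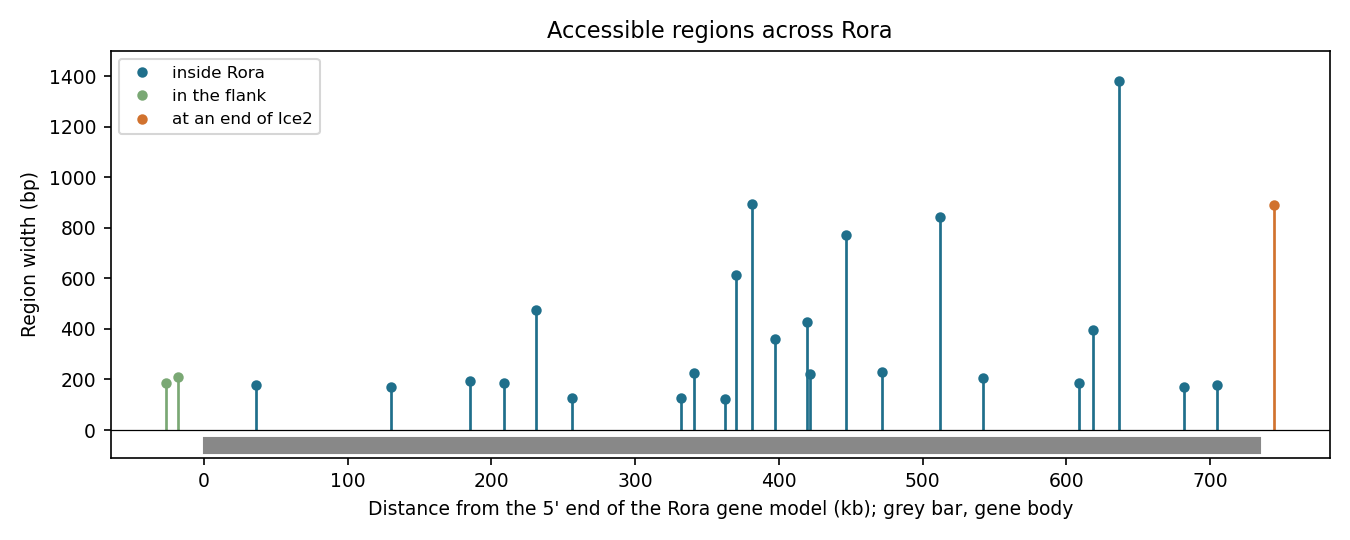
Width in bp of each region in the Rora window against its distance in kb from the 5′ end of the gene model; the grey bar is the gene body. The first 147 kb hold 2 narrow regions, and the 1382 bp region at 636 kb is the widest.

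Per 100 kb of window Rora had 3.11 regions (95% exact Poisson interval 2.03 to 4.56), more than 45.0% of all protein-coding genes. Among the 227 protein-coding genes over 500 kb Rora ranked at place 11, and their median was 1.54 per 100 kb with quartiles of 1.15 and 1.98. A region within 1 kb of a start, or of either end for a gene with no listed start, was also uncommon in that class, at 62 of 227 genes (27.3%). The genes of that class nearest to Rora in this density were Elmo1 (3.08), which encodes an activator of Rac, Pde4b (3.06), a cyclic AMP phosphodiesterase gene, and Sox5 (3.04), a transcription factor gene. Elmo1 and Pde4b had a region at a gene start and Sox5, like Rora, had none.

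Ahr encodes the aryl hydrocarbon receptor, a ligand-activated transcription factor that in Th17 cells promotes interleukin-22 production. The gene spans 37.0 kb on chromosome 12 (35497979 to 35534989, gene ID 11622), and a region of 1137 bp (35534185 to 35535321) covered its higher-coordinate end. Its strand was not given in the annotation used here, so which end is the start was not determined. A second region of 379 bp lay inside the gene, a region of 149 bp lay 23.9 kb beyond the lower end, and 4 regions of 420, 464, 437 and 151 bp lay 19.0, 23.6, 29.3 and 44.1 kb beyond the higher end. Ahr was the nearest protein-coding gene to all 7. Its density of 5.11 per 100 kb (2.05 to 10.5) was above that of 68.1% of protein-coding genes.

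Il17a and Il17f, the genes of the signature cytokines, lay together in a stretch without any region. Il17a (chromosome 1, 20730905 to 20734496, gene ID 16171) and Il17f (20777146 to 20785274, gene ID 257630) are 42.6 kb apart, and the gap between the nearest listed regions ran 98.0 kb from 20721964 to 20819959 with both genes whole inside it. Gaps at least this long made up 9.93% of all gaps between neighbouring regions, whose median was 18.5 kb, and 18.5% of protein-coding genes lay whole in one.

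The Il17a window held 2 regions, both upstream. The nearer, 252 bp wide, ended 8.94 kb before the start (20721712 to 20721963), and the other, 209 bp wide, lay 47.5 kb before it. The Il17f window also held 2, of 638 and 719 bp, 35.7 and 40.6 kb upstream of its start. The nearest protein-coding gene to both was Mcm3, and the first covered the Mcm3 start. Densities were 1.93 per 100 kb for Il17a (0.234 to 6.97) and 1.85 for Il17f (0.224 to 6.68), above 28.5% and 26.6% of protein-coding genes. These intervals overlap almost wholly, and the windows share the span between the genes. With flanks of 100 kb each window held 4 regions.

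Il21 encodes interleukin-21, which Th17 and follicular helper cells make and which feeds back on both. Its window was the densest of the 7. Il21 (chromosome 3, 37222759 to 37232636, minus strand, gene ID 60505) had 10 regions in its window, or 9.1 per 100 kb (4.36 to 16.7), above 93.9% of protein-coding genes. The single region inside the gene was 132 bp wide and lay 1.38 kb from the start. Of the others, 7 lay downstream, on the side of Il2, and 2 upstream. The downstream ones included 2 close pairs, of 569 and 572 bp with 0.535 kb between them, about 17.0 to 18.1 kb past the gene, and of 527 and 506 bp with 0.778 kb between them, 47.7 to 49.0 kb past it. Il2, the gene of the T cell growth factor interleukin-2, lies 96.8 kb away, outside the window. The span between Il2 and Il21 held 9 regions, or 9.3 per 100 kb. Among the 3072 spans of 40 to 100 kb between neighbouring protein-coding genes, 94.9% had a lower density and the median was 2.29. The span on the other side, between Il21 and Cetn4, a centrin gene, held 2 regions, or 2.63 per 100 kb, and 55.6% of spans were less dense. These spans were set after the values were seen.

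Il23r encodes the signalling subunit specific to the interleukin-23 receptor. Il23r (chromosome 6, 67422932 to 67491855, minus strand, gene ID 209590) had 12 regions, or 7.1 per 100 kb (3.67 to 12.4), above 84.9% of protein-coding genes. They clustered past the 3′ end rather than at the start. The region nearest to the start was 238 bp wide and 18.9 kb upstream, and the only one inside the gene was 429 bp wide. There were 7 downstream, of which the widest, 827 bp, lay 7.0 kb past the gene, and 2 of 147 and 156 bp lay 0.714 and 1.31 kb past it. The last of the 7, 535 bp wide, covered the start of Il12rb2, which encodes the interleukin-12 receptor chain that marks Th1 cells. The 46.6 kb between Il12rb2 and Il23r overlapped 7 regions, that of the Il12rb2 start included, or 15.0 per 100 kb, and 99.3% of spans of 40 to 100 kb were less dense. The span between Il17a and Il17f, of similar length, held 0, as did 28.4% of the 3072 spans.

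Ccr6 encodes the chemokine receptor that brings Th17 cells to tissues releasing its ligand CCL20. Ccr6 (chromosome 17, 8236041 to 8258519, plus strand, gene ID 12458) had 3 regions, and none was inside the gene. A region of 220 bp lay 35.7 kb upstream, one of 394 bp lay 45.2 kb upstream inside Cep43, a centrosomal protein gene, and one of 1396 bp lay 24.3 kb past the gene at the start of Mpc1, which encodes a subunit of the mitochondrial pyruvate carrier. All 3 were nearer to another protein-coding gene than to Ccr6. The gap that held the gene was 82.5 kb long, and 20.5% of protein-coding genes lay in one at least as long. Its density of 2.45 per 100 kb (0.505 to 7.16) was above that of 34.9% of protein-coding genes. The count depended on the flank, with 11 regions within 100 kb of the gene.

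**Figure D3:**
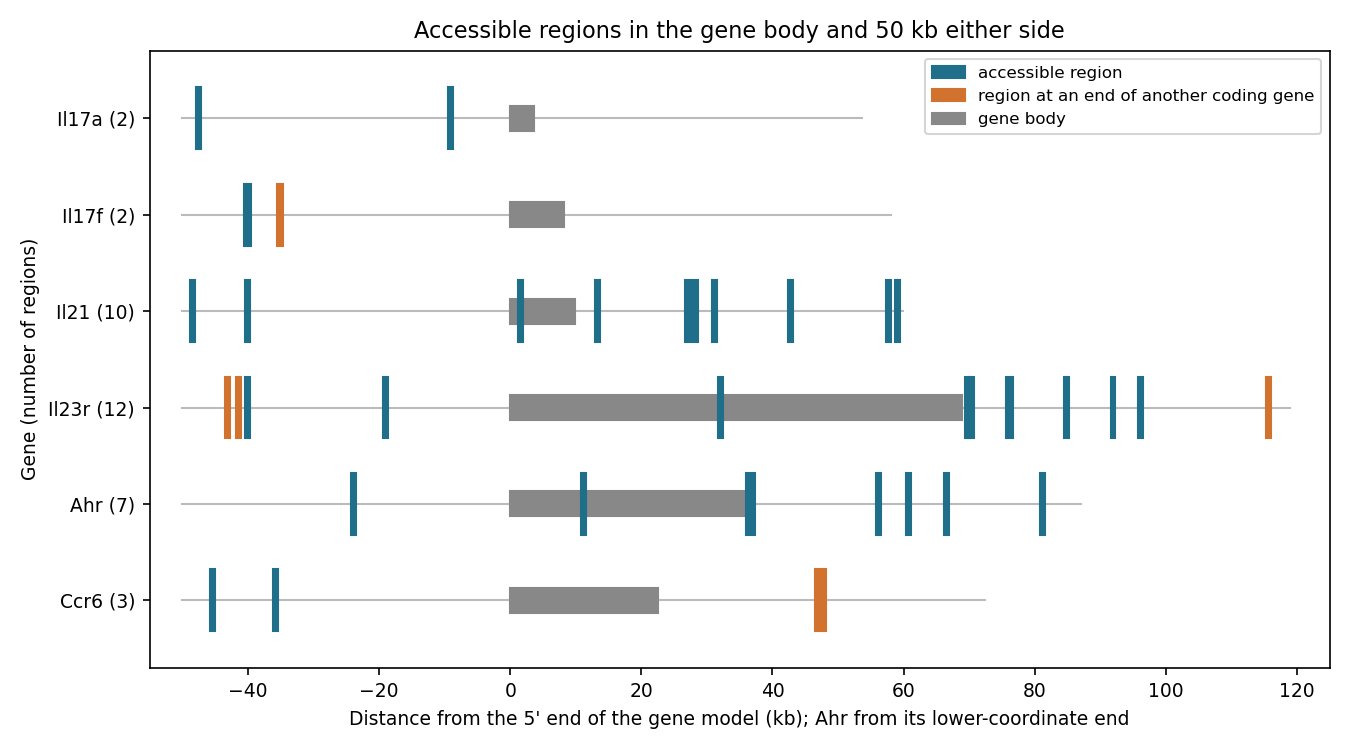
Position of each region in the windows of the 6 shorter genes, in kb from the 5′ end of the gene model (for Ahr from its lower-coordinate end); grey bars are gene bodies, orange marks are regions at an end of another protein-coding gene, and marks are drawn wider than the regions so that narrow ones can be seen. Il17a, Il17f and Ccr6 have no mark inside the gene, while Il21 and Il23r have 7 marks each on the downstream side.

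The order of the 7 densities was Il21, Il23r, Ahr, Rora, Ccr6, Il17a and Il17f. The counting intervals of each neighbouring pair in this order overlapped. Of the 62 regions, 27 lay in a member body, 23 of them in Rora, and 48 had the member as their nearest protein-coding gene. All of the regions of Ahr, 25 of 26 at Rora, 7 of 10 at Il21, 7 of 12 at Il23r, both at Il17a, 0 of 2 at Il17f and 0 of 3 at Ccr6 met this description. Regions at a protein-coding gene end were 8 of the 62, with a median width of 586 bp, while the other 54 had a median of 245 bp. The share at gene ends and the widths by place were not computed over the whole list. Whether they are particular to these loci is therefore not known. Over the 62 the median was 288 bp, against 294 bp in the whole list, and 3 were 1000 bp or wider (4.84%, against 6.33% of all regions).

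**Figure D4:**
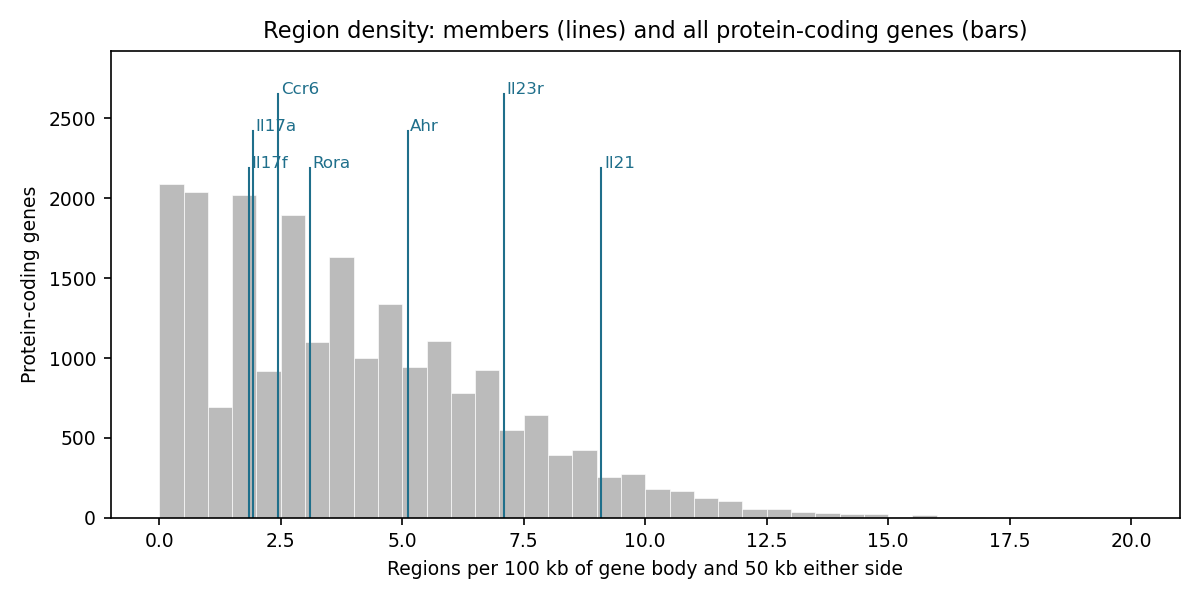
Regions per 100 kb of gene body and 50 kb either side for the 7 members (lines) and all protein-coding genes (bars, number of genes in steps of 0.5 per 100 kb, genes above 20 not drawn). Il21 at 9.1 and Il23r at 7.1 lie in the upper part of the distribution, and Il17a, Il17f and Ccr6 in the lower part.

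Within 1 kb of a start, 1 of the 7 members had a region, against 16 of 21 other genes picked from the Th17 pathway (76.2%) and 52.9% of all protein-coding genes. In the body, 4 of the 7 members had one (57.1%), near the 65.5% of all protein-coding genes, and 17 of the 21 had one. The gene of ROR gamma t is in neither set and was not analysed here. The transcription factor gene Runx1 had 27 regions in its window, Tgfbr2, which encodes a TGF-beta receptor chain, had 22, and Smad3, which encodes a transducer of that signal, had 18. Ccl20, the gene of the CCR6 ligand, had 3 regions and none in the body, and its nearest lay 38.1 kb from the start. The cytokine gene Il22 had 0 in its window, and its nearest region lay 62.8 kb away. Fosl2, of the AP-1 family, and Maf had no region in the body but had one within 1 kb of a start.

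The gene lists of the sister lineages were set beside the members on the same measures. The median density was 3.11 per 100 kb for the 7 members, 7.72 for the 21 other Th17 pathway genes, 7.1 for the 8 Th1 genes, 7.62 for the 9 Th2 genes and 3.57 for all protein-coding genes. A region lay at a start for 7 of 8 Th1 genes and 5 of 9 Th2 genes (55.6%), the latter near the 52.9% of all protein-coding genes. Among Th1 genes, Stat4, a transducer of interleukin-12 signals, had 18 regions, Il12rb2 17 and Il18r1, an interleukin-18 receptor gene, 10. Ifng, the interferon gamma gene, and Cxcr3, a chemokine receptor gene, had none in the body, with 7 and 3 in the window. Among Th2 genes, Il1rl1, which encodes the interleukin-33 receptor, had 14 regions, Il4ra 13 and Ccr4 11. The Th2 cytokine genes Il4, Il5 and Il13 had 4, 7 and 3 in the window and none in the body. Il17a and Il17f, with 2 each, stood below each of these cytokine genes in count, but the counts are small. The Il17a interval of 0.234 to 6.97 per 100 kb spans the densities of Il4 (3.77), Il5 (6.71) and Il13 (2.9). That of Il17f, 0.224 to 6.68, spans Il4 and Il13 and ends just below Il5. The lists are short, were chosen by hand and mix receptors, transcription factors and cytokines in unequal shares, and no test was made between them.

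**Figure D5:**
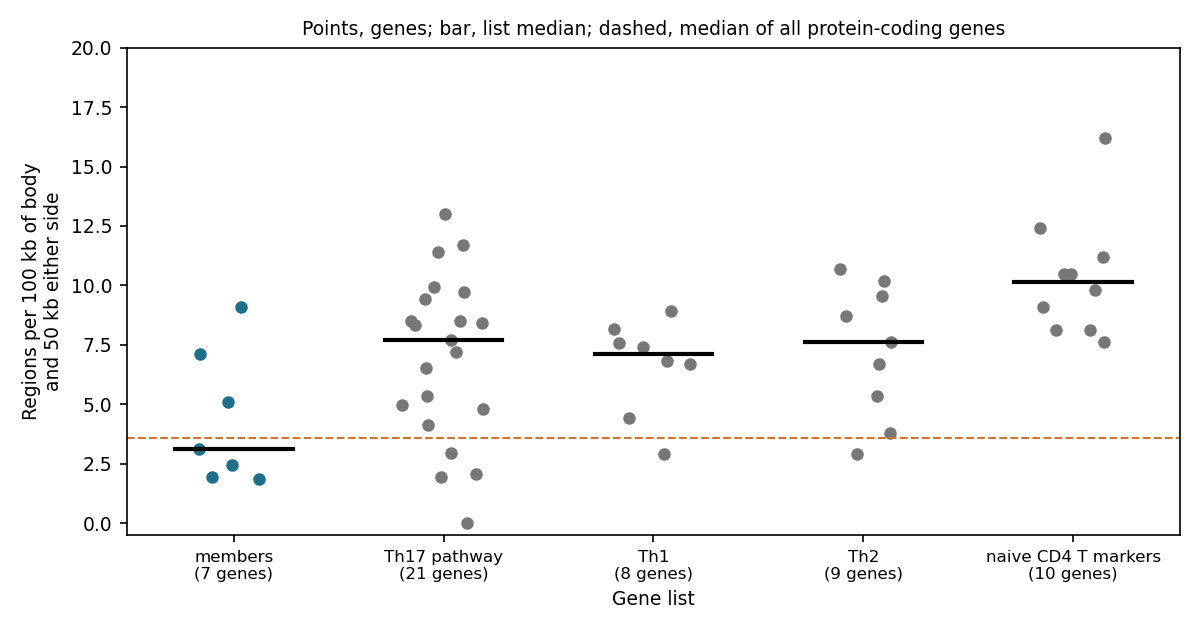
Regions per 100 kb of body and 50 kb either side for each gene (points) of the members, the other Th17 pathway genes, the Th1 and Th2 lists and the naive CD4 T cell markers, with list medians (black bars) and the median of all protein-coding genes, 3.57 (dashed line). The member points run from 1.85 for Il17f to 9.1 for Il21.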

How the data were processed

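ATAC-seq libraries came from naive CD4 T cells, 2 labelled DDX55 KO and 2 labelled WT. The deposited file is 1 list of region positions for all of them, with no header; per the submitters' processing notes, MACS3 3.0.0b1, Bowtie2 2.5.08, fastp 0.12.4 and SAMtools 1.15.1 were used with build mm10. Peak settings, duplicate handling, the shift of transposase cuts and the way libraries were joined are not stated in the labels or the file. Each of these can change how many regions are listed and how wide they are.

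BED positions were converted to 1-based. Gene bodies came from a RefSeq table of GRCm38.p6, and starts, strands and promoter sequences from a RefSeq promoter table with 21263 windows of 17492 protein-coding genes; a gene without one was scored at either end. A region was assigned by an overlap of 1 bp or more. Density is regions per 100 kb of window. Planned comparisons between genotypes could not be made, and nothing was tested. Intervals are exact (95%). The counting functions were tested on simulated data. The members, gene lists and 12 motifs were chosen with earlier results of these data known, and the spans of 40 to 100 kb after seeing the values. Named list genes were the 3 with the most regions and up to 3 with none in the body; some results that the naming rule selects are not reported here. Maf, Cep43, Cetn4, Gm15511 and Gm31262 were named after their values were seen. Analyses used Python 3.11.15, pandas 2.3.3 and SciPy 1.17.1. Alternatives varied the flank, the start window, region width, region joining and assignment.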

Additional observations from a re-analysis of the deposited data

How the results depend on the processing

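The count of 62 regions in the member windows fell to 27 in gene bodies alone and to 33 with flanks of 10 kb, was 31 for regions of 300 bp or more, and was 36 without Rora. The median density of 3.11 per 100 kb was 1.45 in gene bodies alone and 1.85 for regions of 300 bp or more. It lay between 2.45 and 3.78 under the other settings. The median of autosomal protein-coding genes was 3.74 at the reported flank and width. No such median was computed under the other flanks, widths or joining, so members and background were not compared there. The number of members with a region at the start was 2 with windows of 2 kb, which took in Il21, and 2 when either gene end counted, which took in the 3′ end of Il23r. The number with a region in the body stayed within 1.5 times of 4 in the settings run. Of 56 alternative counts per member, 31 stayed within 1.5 times of the reported count and 25 moved by more; with flanks of 100 kb, Ccr6 had 11 regions in place of 3, and Il17a and Il17f 4 each in place of 2. These changes follow from the smaller or larger windows and from the narrower set of regions. No paired analysis was possible because the list carries no value per library, and for the same reason no replicate could be left out. Depth per library is unknown, so how many regions it left undetected cannot be said.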
